A study of Mus musculus with 11 samples.

Results

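Receptor chains through which natural killer (NK) cells sense IL-2, IL-15, IL-12, IL-18 and type I interferon were followed across the groups: Il2ra, Il2rb, Il2rg, Il15ra, Il12rb1, Il12rb2, Il18r1, Il18rap, Ifnar1 and Ifnar2. They were chosen as a named family, with earlier results of these data known. All 10 were found among the 24421 genes counted and passed the filter on low counts. The bulk RNA-seq libraries came from Ly49H+ NK cells of mouse spleen, the NK subset whose activating receptor Ly49H binds a protein of mouse cytomegalovirus (MCMV). The mice were mixed bone marrow chimeras of strain C57BL/6, treated by MCMV infection, in which LDHA-deficient (KO) cells carried CD45.2 and wild-type (WT) cells CD45.1. LDHA is the lactate dehydrogenase subunit that turns pyruvate into lactate.

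The 11 libraries form 4 groups by title: KO D2 (n = 3), WT D2 (n = 3), KO D0 (n = 3) and WT D0 (n = 2). Per the labels each library is 1 mouse, and the sorted cells lacked TCRb and CD3e and carried NK1.1, DX5 and Ly49H. All 11 samples carry a days post infection label of day 2, while their titles say D0 or D2. Grouping followed the titles, and whether mice behind D0 libraries had been infected cannot be settled from the labels. Samples titled WT have a genotype label that names both genotypes, and here too the title was used. The labels give neither the ages of the mice nor how or in which cells Ldha was deleted.

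Cytokine receptors of these families are assembled from shared and private chains. IL-2 and IL-15 both signal through the beta chain (Il2rb) and the common gamma chain (Il2rg), and each has a private alpha chain, Il2ra for IL-2 and Il15ra for IL-15, which holds the ligand. IL-12 binds a pair of Il12rb1 and Il12rb2, IL-18 binds Il18r1 and then recruits Il18rap, and interferon alpha and beta bind Ifnar2 tightly and recruit Ifnar1. In NK cells IL-15 sustains survival, IL-12 with IL-18 drives interferon gamma, and type I interferon raises cytotoxicity early in viral infection.

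Library totals were 21902080 to 24371249 counts in KO D2, 23361983 to 27702679 in WT D2, 19452460 to 24754212 in KO D0 and 25510842 to 27992092 in WT D0. Levels below are CPM, a gene's count scaled to a common library size, with TMM scaling, which sets the libraries to a common scale through the bulk of the genes. Ldha averaged 109.6 ± 7.17 CPM in KO D2 and 2903 ± 179 CPM in WT D2, and 99.3 ± 7.16 CPM in KO D0 and 609 ± 66.2 CPM in WT D0 (SD), so its level went with the titles. Together, 10 NK markers held 19552 to 23483 CPM in KO D2 and 17184 to 19550.2 CPM in WT D2, and at D0 12679.6 to 16117 CPM in KO and 14838 to 16018 CPM in WT. Gzma, the highest of 10, lay between 6170.3 and 8523 CPM in KO D2, 5551 and 6887 CPM in WT D2, 2963 and 4874 CPM in KO D0, and 3726 and 4528 CPM in WT D0. The NK marker Klrb1c was lower at D2, at 562.7 to 808 CPM in KO and 391 to 563.1 CPM in WT. At D0 Klrb1c held 1428 to 1679.9 CPM in KO and 1518 to 1649 CPM in WT. Ncr1 and Klra8 are given under the other observations. The T cell gene Cd3e stayed at or under 0.995 CPM and the regulatory T cell gene Foxp3 at or under 0.271 CPM in every library. Summed, 9 T cell markers led by Cd28 held 110 to 163 CPM in KO D2 and 84.5 to 147 CPM in WT D2. At D0 they held 77.4 to 133 CPM in KO and 69.5 to 99.9 CPM in WT. Over all libraries, 6 B cell markers led by Cd22 summed to 31.5 to 56.8 CPM. Likewise, 5 erythroid markers led by Hbb-bs summed to 39.0 to 928 CPM. The summed level of 6 monocyte and macrophage markers was 13.3 to 20.2 CPM in KO D2, 14.0 to 19.7 CPM in WT D2, 24.6 to 47.2 CPM in KO D0 and 43.9 to 63.9 CPM in WT D0, and that of 6 dendritic cell markers, led by Itgax, was 279 to 342 CPM in KO D2, 225 to 236 CPM in WT D2, 643 to 762 CPM in KO D0 and 675 to 704 CPM in WT D0. Itgax alone gave most of the dendritic cell sum, at 269.7 to 333 CPM in KO D2 and 205 to 223 CPM in WT D2. At D0 Itgax held 637 to 755 CPM in KO and 668 to 698 CPM in WT. The part of any of these marker lists in the differences between days was not tested. In bulk samples, fewer cells of a type and less RNA per cell cannot be told apart.

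**Figure D1:**
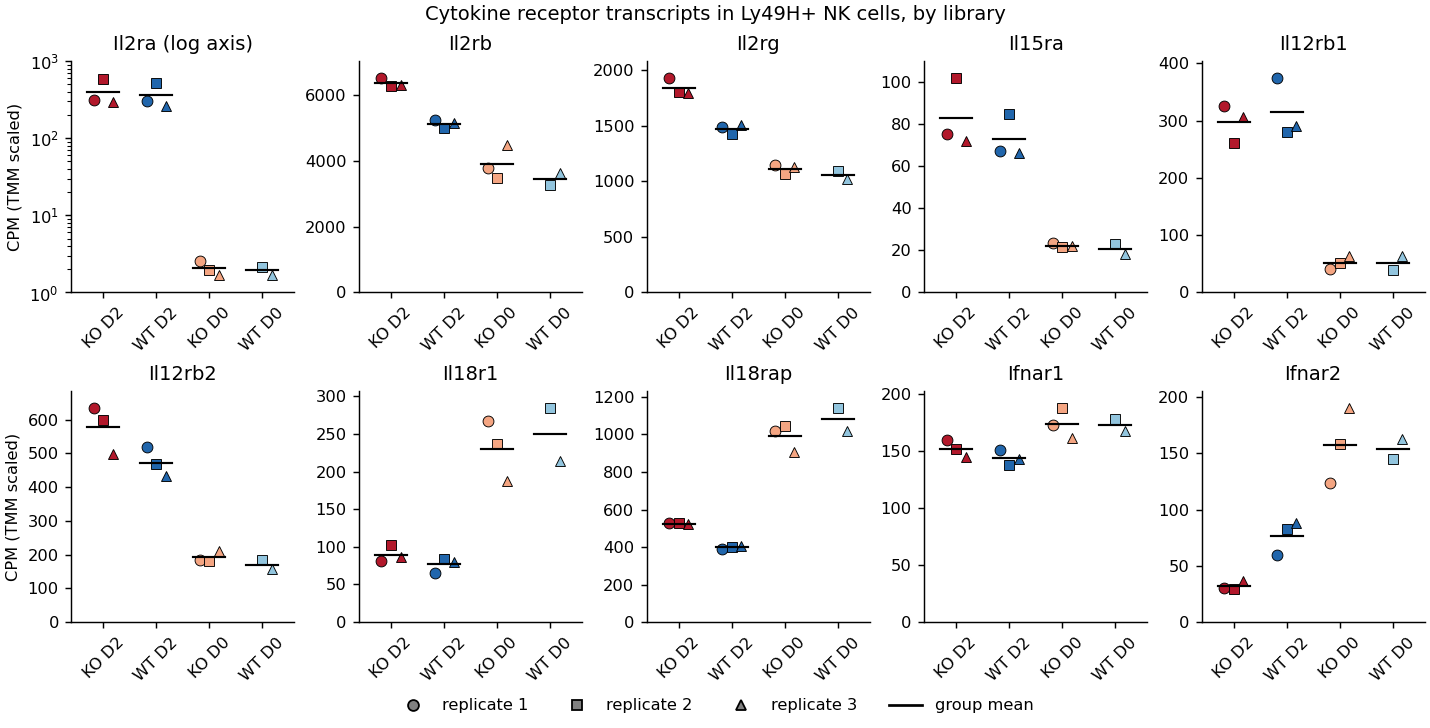
CPM of the 10 receptor chains (y axes; log axis for Il2ra) in the 4 groups (x axes); each point is 1 library, its shape gives the replicate number and the line is the group mean. Il2ra lay between 265 and 585 CPM in the 6 D2 libraries, and Ifnar2 in KO D2 lay below every other library.

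Between D0 and D2 the receptor set was rearranged in both genotypes. Il2ra rose most, Il15ra and both IL-12 receptor chains rose several-fold, and Il2rb and Il2rg rose modestly. Both IL-18 receptor chains and Ifnar2 fell, while Ifnar1 was not called. In KO, 9 of 10 chains were called at D2 against D0 by edgeR's quasi-likelihood test (adjusted p under 0.05), 6 higher and 3 lower, where 61.4% of all 13711 genes tested were called, 27% higher and 34.5% lower. In WT the count was also 9 of 10, 6 higher and 3 lower, against 53.5% of all genes, 27.5% higher and 26% lower. In all 10 chains the D2 and D0 libraries of a genotype did not overlap, as in 67% of all genes in KO and 68.5% in WT.

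Il2ra, the high-affinity alpha chain of the IL-2 receptor (chr2:11642792-11693194, RefSeq GRCm38.p6), had 312, 585 and 292 CPM in KO D2, 302, 517 and 265 CPM in WT D2, 2.55, 1.95 and 1.71 CPM in KO D0, and 2.16 and 1.71 CPM in WT D0. The D2 libraries were far above the D0 libraries, and KO and WT overlapped on both days. The D0 levels rest on 37 to 68 counts per library, above the floor of 3 counts. Relative to D0, Il2ra rose by 7.57 ± 0.39 on the log2 scale (SE) in KO, 190.0-fold, and by 7.54 ± 0.47 in WT, 186-fold (edgeR adjusted p = 1.3e-08 and 7e-08). The KO minus WT difference of these changes was 0.03, with a 95% interval of -1.07 to 1.13 (edgeR adjusted p = 0.99). Replicate 2 was the highest of its group at D2 in both genotypes. Regulatory T cells also carry Il2ra, and their defining gene Foxp3 was near 0, as given above. The summed level of 4 regulatory T cell markers, led by Ikzf2, moved with day, at 24.1 to 41.5 CPM in KO D2, 16.3 to 38.2 CPM in WT D2, 5.91 to 11.2 CPM in KO D0 and 5.15 to 7.30 CPM in WT D0, and its part was not tested.

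Il15ra, the IL-15-presenting chain, lies next to Il2ra on chromosome 2 with 11977 bases between the genes. Its level was 75.2, 102 and 71.7 CPM in KO D2, 67.3, 84.8 and 66.3 CPM in WT D2, 23.3, 21.4 and 22.0 CPM in KO D0, and 23.0 and 18.5 CPM in WT D0. Again only the day separated the libraries, and replicate 2 was highest at D2 in both genotypes. Il15ra rose 3.72-fold in KO (log2 1.90 ± 0.17, edgeR adjusted p = 7.3e-07) and 3.51-fold in WT (log2 1.81 ± 0.19, edgeR adjusted p = 5e-06). The private alpha chains changed by different amounts: a library held 4.08 to 5.75 Il2ra counts per Il15ra count in KO D2 and 4.0 to 6.10 in WT D2, against 0.0776 to 0.109 in KO D0 and 0.0925 to 0.0940 in WT D0.

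Il2rb, the shared signalling beta chain (chr15:78479256-78511621), had 6500.3, 6273 and 6283 CPM in KO D2, 5221, 4986 and 5137 CPM in WT D2, 3768, 3487 and 4470.2 CPM in KO D0, and 3270.4 and 3618 CPM in WT D0. KO D2 stood above WT D2 with no overlap, and both above the D0 libraries. Il2rb rose 1.62-fold in KO (log2 0.70 ± 0.11, edgeR adjusted p = 0.0001) and 1.48-fold in WT (log2 0.57 ± 0.12, edgeR adjusted p = 0.0016). Il2rg, the common gamma chain on the X chromosome, had 1926, 1799 and 1795 CPM in KO D2, 1484, 1424 and 1507 CPM in WT D2, 1149, 1064 and 1126 CPM in KO D0, and 1092 and 1018 CPM in WT D0. Its groups stood in the same order, again with no overlap between KO D2 and WT D2. Il2rg rose 1.65-fold in KO (log2 0.72 ± 0.09, edgeR adjusted p = 2e-05) and 1.40-fold in WT (log2 0.48 ± 0.10, edgeR adjusted p = 0.0017).

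The size of the Il2rb and Il2rg changes between days depends on the scale. With library totals in place of TMM, the median of all genes moved by -0.36 in KO and -0.43 in WT, and the WT changes were 0.14 for Il2rb (edgeR adjusted p = 0.27) and 0.05 for Il2rg (edgeR adjusted p = 0.71), no longer called. Under that scaling 28.9% of all calls in KO and 30.4% in WT were higher, against 43.9% and 51.5% with TMM. The ratio of the chains needs no scaling: Il2rb had 3.37 to 3.50 counts per Il2rg count in KO D2, 3.41 to 3.52 in WT D2, 3.28 to 3.97 in KO D0 and 3.00 to 3.55 in WT D0, with every pair of groups overlapping.

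Il12rb1 (chr8:70808360-70823542), the chain that IL-12 and IL-23 receptors share, had 325, 262 and 307 CPM in KO D2, 374, 279 and 290.1 CPM in WT D2, 40.3, 51.4 and 63.5 CPM in KO D0, and 38.9 and 64.5 CPM in WT D0. It rose 5.76-fold in KO (log2 2.53 ± 0.21, edgeR adjusted p = 5.8e-07) and 6.08-fold in WT (log2 2.60 ± 0.25, edgeR adjusted p = 2.4e-06), and the genotypes overlapped on each day. Il12rb2 (chr6:67285986-67376293), the chain that carries the IL-12 signal to STAT4, had 635, 599 and 497 CPM in KO D2, 519, 468 and 432 CPM in WT D2, 183, 180.3 and 212 CPM in KO D0, and 184 and 158 CPM in WT D0. The D2 libraries were all above the D0 libraries, and only the lowest KO D2 library fell within the WT D2 range. Il12rb2 rose 3.01-fold in KO (log2 1.59 ± 0.13, edgeR adjusted p = 4.1e-07) and 2.77-fold in WT (log2 1.47 ± 0.15, edgeR adjusted p = 3.5e-06). Il12rb1 had 0.436 to 0.617 counts per Il12rb2 count in KO D2 and 0.598 to 0.721 in WT D2, against 0.22 to 0.299 in KO D0 and 0.212 to 0.409 in WT D0, so the balance of the pair moved toward Il12rb1 at D2.

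Il18r1 and Il18rap, the ligand-binding and accessory chains of the IL-18 receptor, are neighbours on chromosome 1, with 14507 bases between them, and moved the other way. Il18r1 had 80.9, 102 and 86.2 CPM in KO D2, 65.7, 84.3 and 80.5 CPM in WT D2, 268, 236 and 187 CPM in KO D0, and 284 and 214 CPM in WT D0. It fell 2.57-fold in KO (log2 -1.36 ± 0.17, edgeR adjusted p = 1.3e-05) and 3.25-fold in WT (log2 -1.70 ± 0.18, edgeR adjusted p = 5.1e-06). The D0 libraries were all above the D2 libraries, and the genotypes overlapped on each day.

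Il18rap had 526, 526 and 522 CPM in KO D2, 387, 401 and 407 CPM in WT D2, 1020.3, 1045 and 906 CPM in KO D0, and 1141 and 1019.5 CPM in WT D0. All D2 libraries were below all D0 libraries, and KO D2 was above WT D2 with no overlap. Il18rap fell 1.89-fold in KO (log2 -0.92 ± 0.10, edgeR adjusted p = 4.3e-06) and 2.71-fold in WT (log2 -1.44 ± 0.11, edgeR adjusted p = 2.8e-07). Their neighbour Il1rl1, the IL-33 receptor, went the opposite way to both: its mean at D2 was 13 CPM in KO and 12.5 CPM in WT, and its mean at D0 was 3.01 CPM in KO and 3.12 CPM in WT (log2 2.11 in KO and 2.00 in WT, edgeR adjusted p = 1.7e-05 and 0.00011).

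The interferon receptor chains lie on chromosome 16, Ifnar2 at chr16:91372783-91405589 and Ifnar1 at chr16:91485032-91510523, with 79442 bases between them that hold Il10rb, a chain of the IL-10 receptor. Ifnar1 had 159, 151 and 145 CPM in KO D2, 150.4, 137 and 143 CPM in WT D2, 172, 187 and 161 CPM in KO D0, and 178 and 168 CPM in WT D0. The D0 libraries were slightly above the D2 libraries of the same genotype with no overlap, but the log2 changes of -0.19 in KO and -0.27 in WT were not called (edgeR adjusted p = 0.11 and 0.061). With library totals as the scale they were -0.55 in KO and -0.70 in WT and were called (edgeR adjusted p = 0.00046 and 0.00018), and with an offset for GC content the KO value was 0.21 (edgeR adjusted p = 0.13). Over 20 alternatives Ifnar1 was called in 3 in KO, among them without KO D0 replicate 3 (edgeR adjusted p = 0.023), and in 13 in WT, so no direction is given for it.

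Ifnar2, the chain that binds interferon first, had 30.0, 29.9 and 36.6 CPM in KO D2, 59.5, 83.1 and 87.8 CPM in WT D2, 124, 159 and 190.5 CPM in KO D0, and 145 and 163 CPM in WT D0. The D0 libraries of both genotypes were highest and overlapped, WT D2 was lower and KO D2 the lowest, with no overlap between KO D2 and WT D2. Ifnar2 fell 4.90-fold in KO (log2 -2.29 ± 0.19, edgeR adjusted p = 4.2e-07) and 2.01-fold in WT (log2 -1.01 ± 0.20, edgeR adjusted p = 0.00078). The gene between the chains, Il10rb, fell by 1.61 on the log2 scale in KO and by 1.35 in WT (edgeR adjusted p = 1e-06 and 1.1e-05), and with the GC offset by 0.87 in KO and by 1.19 in WT (edgeR adjusted p = 0.00026 and 4.3e-05).

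**Figure D2:**
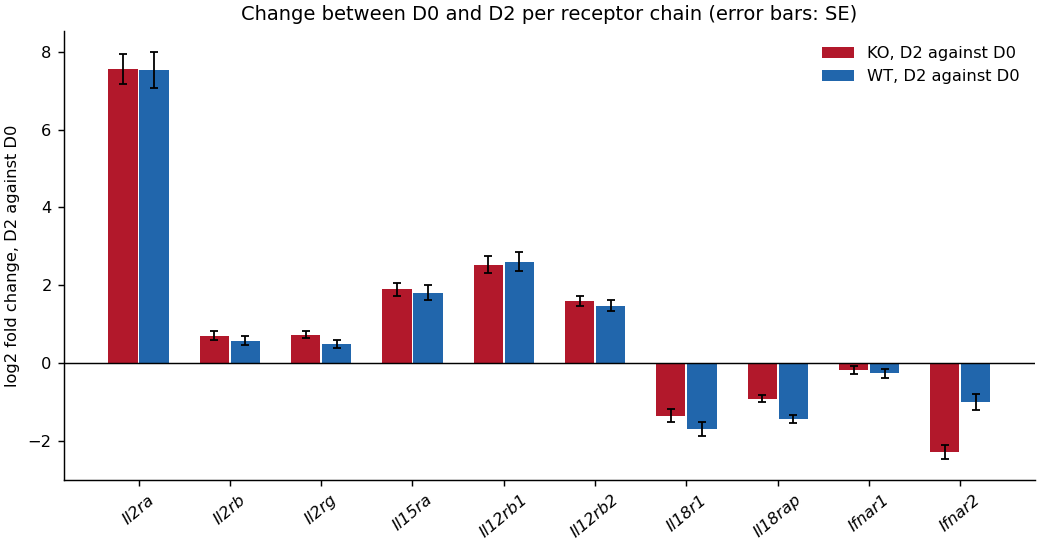
Log2 fold change of each receptor chain at D2 against D0 (y axis), in KO and in WT; bars start at 0 and error bars are SE. Il2ra changed by 7.57 and 7.54, and the 2 genotypes differ most for Ifnar2, at -2.29 in KO and -1.01 in WT.

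To show the letters behind the chains that rose and fell, the 250 bases before the start in a RefSeq promoter table (GRCm38.p6) are given for Il2ra and Il12rb2, which rose, for Il18rap and Ifnar2, which fell, and for Ifnar1, the partner that was not called. They lie at chr2:11642542-11642791 on the plus strand for Il2ra, chr6:67376189-67376438 on the minus strand for Il12rb2, chr1:40515112-40515361 on the plus strand for Il18rap, chr16:91372533-91372782 on the plus strand for Ifnar2 and chr16:91484965-91485214 on the plus strand for Ifnar1. For Il12rb2 and Ifnar1 the table's start lies within the gene span given above, so part of the stretch is inside the gene. Capitals mark matches to TTCNNNGAA, the letters bound by STAT dimers.
Il2ra: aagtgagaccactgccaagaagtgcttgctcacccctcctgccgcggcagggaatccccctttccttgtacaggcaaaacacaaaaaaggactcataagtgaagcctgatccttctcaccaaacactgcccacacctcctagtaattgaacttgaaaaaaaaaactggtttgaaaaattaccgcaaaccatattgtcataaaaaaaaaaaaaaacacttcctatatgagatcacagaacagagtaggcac
Il12rb2: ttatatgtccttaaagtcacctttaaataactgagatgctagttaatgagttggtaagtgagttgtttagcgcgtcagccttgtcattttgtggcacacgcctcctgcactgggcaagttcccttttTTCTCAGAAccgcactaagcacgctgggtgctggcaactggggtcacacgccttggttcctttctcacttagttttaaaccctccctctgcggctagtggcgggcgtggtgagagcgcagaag
Il18rap: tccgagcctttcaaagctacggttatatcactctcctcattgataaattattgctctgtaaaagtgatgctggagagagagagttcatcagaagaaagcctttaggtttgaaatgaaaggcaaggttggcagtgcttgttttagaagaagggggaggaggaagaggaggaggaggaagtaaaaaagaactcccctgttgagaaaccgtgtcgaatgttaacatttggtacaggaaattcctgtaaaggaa
Ifnar2: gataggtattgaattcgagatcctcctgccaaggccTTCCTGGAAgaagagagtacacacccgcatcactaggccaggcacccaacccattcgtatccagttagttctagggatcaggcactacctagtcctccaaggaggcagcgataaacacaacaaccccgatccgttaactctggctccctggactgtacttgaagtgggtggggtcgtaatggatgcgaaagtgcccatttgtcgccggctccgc
Ifnar1: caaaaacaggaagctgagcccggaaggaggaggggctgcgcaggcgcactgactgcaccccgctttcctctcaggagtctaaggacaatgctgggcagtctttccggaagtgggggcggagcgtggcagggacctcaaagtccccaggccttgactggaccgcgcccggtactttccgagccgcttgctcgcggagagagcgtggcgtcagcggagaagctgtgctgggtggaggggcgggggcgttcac

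The table of promoters held an entry for 8 of the 10 chains, and Il2rb and Il12rb1 were not among them. On either strand, the STAT letters TTCNNNGAA were found in Il12rb2 at -123, in Ifnar2 at -214 and in Il18r1 at -219 and -152 (the last of its 3 starts), counted from the table's start, and 7.02% of all 32851 promoters hold them in the same length. No entry of the 8 chains held the interferon regulatory factor motif (2.98% of all promoters) or the NF-kB motif (1.21%), searched on both strands. The AP-1 letters TGANTCA (6.75% of all promoters) occurred once, in the second of 2 Il15ra starts. The stretches differ in composition: GC content was 65.6% for Ifnar1 and 54% for Ifnar2, against 50% for Il12rb2, 42.4% for Il2ra and 42% for Il18rap, and the median over all promoters was 52.4%. A match is a description of the letters and says nothing of binding.

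Per length of transcript, Il2rb and Il2rg were the most abundant chains in all 4 groups and did not overlap with each other or with the next chain. On this scale, CPM per kilobase, Il2rb averaged 1515 ± 30.6 in KO D2, 1219.5 ± 28.4 in WT D2, 932 ± 121 in KO D0 and 821 ± 58.6 in WT D0 (SD). In KO D2 the order after them was Il12rb2 (192), Il18rap (107), Il12rb1 (104), Il2ra (89.8), Il15ra (42.8), Ifnar1 (38.8), Il18r1 (21.6) and Ifnar2 (10.6 CPM per kilobase). Among these, Il18rap and Il12rb1, Il12rb1 and Il2ra, and Il15ra and Ifnar1 overlapped as neighbours. In WT D2 the order was Il12rb2 (158), Il12rb1 (109), Il2ra (82.0), Il18rap (81.5), Il15ra (37.6), Ifnar1 (36.7), Ifnar2 (25.2) and Il18r1 (18.5 CPM per kilobase), and Ifnar2 overlapped with Il18r1, as did Il12rb1 with Il2ra, Il2ra with Il18rap, and Il15ra with Ifnar1.

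At D0, Il18rap stood after Il2rb and Il2rg in both genotypes, at 203 ± 15.2 CPM per kilobase in KO and 221 ± 17.6 in WT. Il12rb2, Il18r1, Ifnar2 and Ifnar1 followed, in an order that began with Il12rb2 in KO and with Il18r1 in WT, between 44.4 and 64.0 CPM per kilobase in KO D0 and between 44.1 and 60 in WT D0. Within that block all neighbours overlapped except Ifnar2 and Ifnar1 in WT D0. Il12rb1, Il15ra and Il2ra came last in both, and Il2ra was lowest at 0.469 ± 0.0976 CPM per kilobase in KO D0 and 0.439 ± 0.0732 in WT D0. Il2ra thus stood at rank 10 of 10 on D0, and at rank 6 in KO D2 and 5 in WT D2.

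KO against WT sets LDHA-deficient against wild-type cells of the same day. At D2, 3 of 10 chains were called: Il2rg and Il18rap were higher in KO and Ifnar2 was lower. Over all genes 16.1% were called, 1.61% higher and 14.5% lower. The groups did not overlap for 4 chains, Il2rb, Il2rg, Il18rap and Ifnar2, as in 33.8% of all genes.

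Ifnar2 was 2.39-fold lower in KO at D2, at 32.2 ± 3.83 CPM in KO and 76.8 ± 15.1 CPM in WT (log2 -1.26 ± 0.18, edgeR adjusted p = 0.00052). It was called in all 22 alternatives run, over a range of -1.43 to -0.74 with adjusted p from 2e-07 to 0.006. At D2 KO libraries were lower than WT for GC-rich transcripts as a class: 37.6% of the genes whose richest 100-base window held 75% to under 80% GC were called lower, against 1.54% of those under 60%. Ifnar2 (77%) and Ifnar1 (76%) both fall in the first class, whose median log2 fold change was -0.41. With an offset for this trend Ifnar2 was at -0.74 (edgeR adjusted p = 0.004), and Ifnar1 was at 0.47 (edgeR adjusted p = 0.018), against 0.08 without it (edgeR adjusted p = 0.71, 95% interval -0.14 to 0.30).

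Il18rap was 1.32-fold higher in KO at D2, at 525 ± 1.88 CPM in KO and 398 ± 10.1 CPM in WT (log2 0.40 ± 0.10, edgeR adjusted p = 0.013). The call was lost with the GC offset (log2 0.27, edgeR adjusted p = 0.12) and without KO D2 replicate 1, KO D2 replicate 3 or WT D2 replicate 1 (edgeR adjusted p = 0.059, 0.055 and 0.056). Under the GC offset and a replicate block together it was at 0.28, called with the block within day (edgeR adjusted p = 0.015) and not with the block across days (0.056). Il2rg was 1.25-fold higher in KO, at 1840.2 ± 74.4 CPM in KO and 1472 ± 42.9 CPM in WT (log2 0.32 ± 0.09, edgeR adjusted p = 0.03). This call was lost with the GC offset (log2 0.20, edgeR adjusted p = 0.19), without the filter on low counts (0.076), and without any 1 of the 6 D2 libraries, where it ran from 0.068 to 0.15. Under the GC offset the edgeR adjusted p was 0.045 with the block within day and 0.15 with the block across days.

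Il2rb had a KO to WT ratio of 1.24 and missed the threshold (log2 0.31, 95% interval 0.08 to 0.55, edgeR adjusted p = 0.073). Il12rb2 had a log2 value of 0.29 (95% interval 0.01 to 0.56, edgeR adjusted p = 0.17). At D2 same-numbered KO and WT libraries deviated together, so fits with the number as a block were also run. The block within day called Il2rb (edgeR adjusted p = 0.0041) and Il12rb2 (edgeR adjusted p = 0.042) as higher, which gives 5 of 10 chains. That fit called more genes in general, 900 higher and 2544 lower of 13711, against 221 and 1986 without the block. With the block across days 4 of 10 chains were called, Il2rb among them but not Il12rb2. There 442 of all genes were called higher and 2283 lower. Il2rb was called in 9 of 22 alternatives, among them without KO D0 replicate 3 (edgeR adjusted p = 0.03). Adding the GC offset to the block gave an edgeR adjusted p of 0.04 for Il2rb and 0.19 for Il12rb2 within day, and 0.23 and 0.34 across days.

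The remaining chains were not called. Il2ra had a log2 value of 0.13 (95% interval -0.47 to 0.74), Il15ra 0.19 (-0.16 to 0.53), Il12rb1 -0.08 (-0.52 to 0.36) and Il18r1 0.22 (-0.13 to 0.58). All 4 intervals hold a difference of the size seen in Il2rg.

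**Figure D3:**
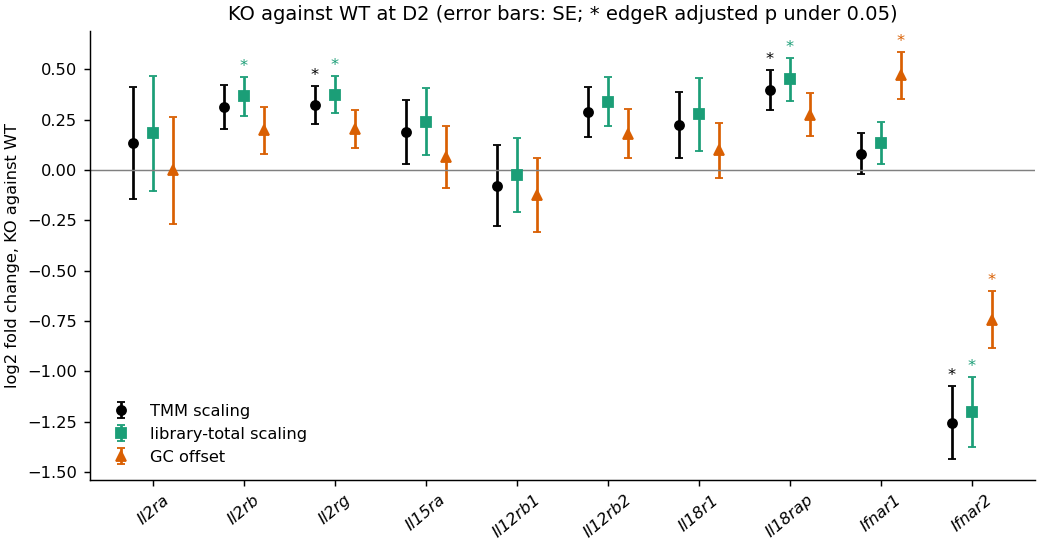
Log2 fold change of KO against WT at D2 (y axis) for each receptor chain under TMM scaling, library-total scaling and a GC offset; error bars are SE and a star marks an edgeR adjusted p under 0.05. Ifnar2 has a star in all 3 settings, at -1.26, -1.20 and -0.74, while Il2rg and Il18rap lose theirs with the GC offset.

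**Figure D4:**
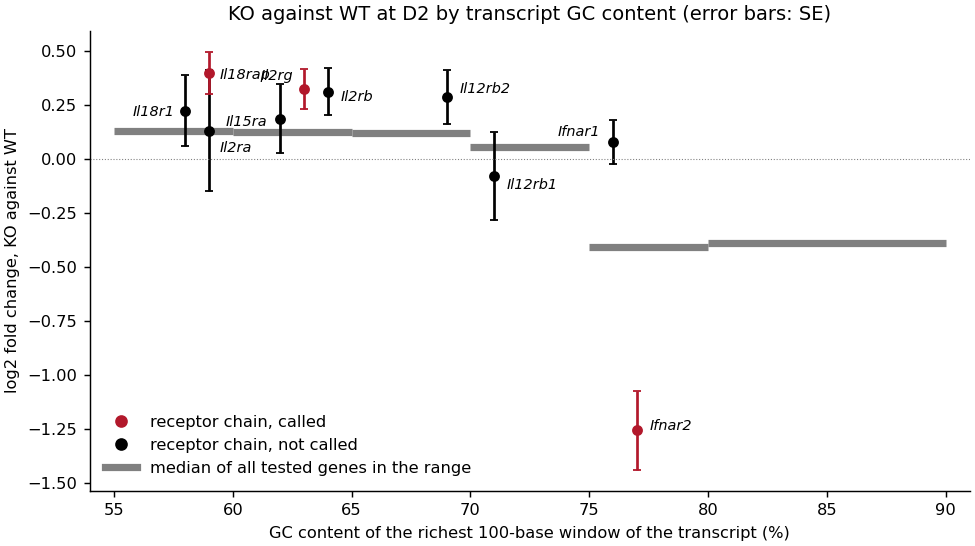
Log2 fold change of KO against WT at D2 (y axis) against the GC content of the richest 100-base window of the transcript (x axis, percent); points are receptor chains with SE, and grey bars are medians of all tested genes, the first covering all windows under 60% and the last all from 80%. Ifnar1 and Ifnar2 sit at 76% and 77%, above and below the class median of -0.41.

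At D0 edgeR called 0 of 10 chains, where 0.153% of all genes were called, 0.0948% higher and 0.0583% lower. At an unadjusted p under 0.05 the count was also 0 by edgeR, against 4.35% of all genes, and DESeq2 called 0. The log2 values ran from -0.13 (Il18rap) to 0.18 (Il2rb). For Ifnar2 the value was 0.03, with a 95% interval of -0.40 to 0.46, which does not reach the D2 value of -1.26. For all 10 chains the KO D0 and WT D0 libraries overlapped, while 16.5% of all genes did not.

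The difference between genotypes in the change from D0 to D2 was tested directly. Of the 10 chains, 1 was called, Ifnar2, at -1.29 ± 0.27 (edgeR adjusted p = 0.022), where 5.84% of all genes were called, 0.124% higher and 5.72% lower. This call was lost with the GC offset (-0.77, edgeR adjusted p = 0.093), held with the GC offset and the replicate block together (-0.87 within day and -0.84 across days, edgeR adjusted p = 0.002 and 0.0042), and was lost without any 1 of KO D2 replicates 1 and 2, WT D2 replicates 2 and 3, KO D0 replicate 2 and WT D0 replicates 2 and 3, where adjusted p ran from 0.053 to 0.13. Il18rap was at 0.52 ± 0.15 (edgeR adjusted p = 0.055) and was called with the replicate block (0.55, edgeR adjusted p = 0.004) and without KO D0 replicate 1 (edgeR adjusted p = 0.042). The block within day also called Il18r1, at 0.46 (edgeR adjusted p = 0.025), against 0.34 without it (edgeR adjusted p = 0.57). This was the only 1 of 21 alternatives that called Il18r1, and it called 619 of all 13711 genes higher and 1997 lower. With the GC offset as well, the block gave 0.25 for Il18rap and 0.12 for Il18r1 (edgeR adjusted p = 0.17 and 0.6), neither called, while Ifnar1 was at 0.50 (edgeR adjusted p = 0.02, and 0.051 with the block across days).

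Ratios of partner chains within a library use no scaling between libraries. Ifnar2 had 0.189, 0.197 and 0.253 counts per Ifnar1 count in KO D2, 0.396, 0.606 and 0.615 in WT D2, 0.718, 0.846 and 1.18 in KO D0, and 0.818 and 0.974 in WT D0. KO D2 lay below WT D2 with no overlap, and both below the D0 libraries. The exact two-sided permutation test over the 3 KO and 3 WT libraries at D2 gave p = 0.1, the smallest that 3 against 3 can give. Il18r1 per Il18rap count was 0.154 to 0.194 in KO D2 and 0.17 to 0.21 in WT D2 (exact permutation p = 0.2), and Il12rb1 per Il12rb2 also overlapped between the genotypes at D2 (exact permutation p = 0.2). For both ratios KO was below WT in 3 of 3 same-numbered pairs, where the exact two-sided sign-flip test, chosen after seeing the data, gave p = 0.25, the smallest that 3 pairs can give.

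**Figure D5:**
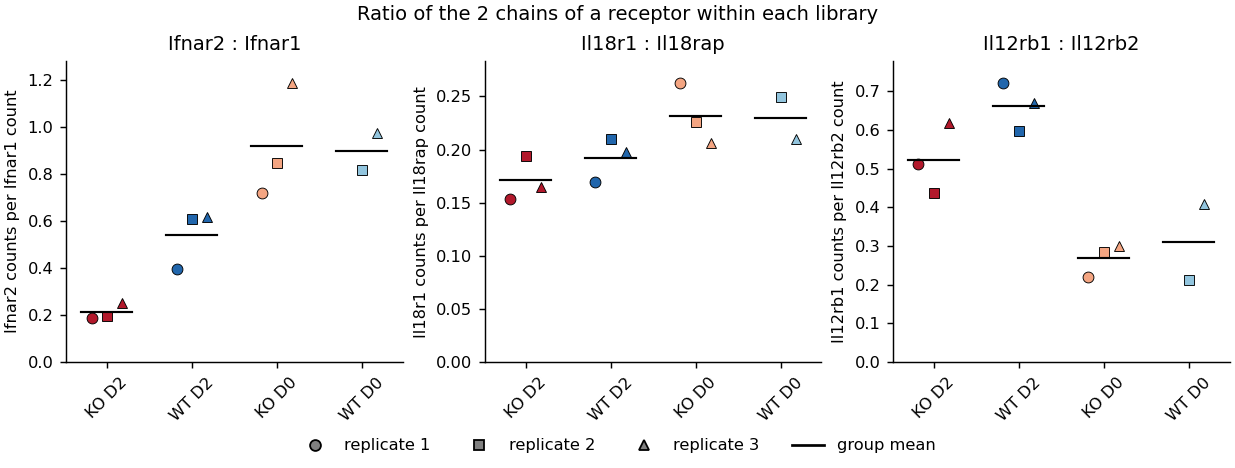
Counts of 1 receptor chain per count of its partner (y axes) in the 4 groups (x axes); each point is 1 library and the line is the group mean. Ifnar2 per Ifnar1 count reached at most 0.253 in KO D2 and at least 0.396 in WT D2, while the other 2 ratios overlapped between the genotypes.

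Among the ligands, the NK libraries held few counts. At D2, 4 of 7 tested were called in KO against WT, all higher, where 16.1% of all genes were called and 1.61% higher. Il15 had 403, 339 and 296 counts in KO D2, 163, 186 and 223 in WT D2, 316, 227 and 172 in KO D0, and 226 and 322 in WT D0. In CPM it was higher in KO at D2 with no overlap (log2 0.96 ± 0.22, edgeR adjusted p = 0.0093). Ifna4 had 51, 18 and 20 counts in KO D2 and 2, 1 and 1 in WT D2, Ifna2 had 44, 22 and 27 in KO D2 and 12, 2 and 1 in WT D2, and Ifna1 had 58, 34 and 15 in KO D2 and 10, 2 and 0 in WT D2. In the D0 libraries these 3 were at 0 or 1. The 3 passed the filter on low counts through the KO D2 libraries, where they were high, so their calls carry no weight as support. Because the interferon alpha genes resemble each other closely, reads may be shared out wrongly among them, and no fold is given. Il2 had 0 counts in KO D2, 1 in WT D2, 7 in KO D0 and 11 in WT D0, summed over the libraries of a group, and was too low to be tested.

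The Janus kinases and STAT factors that the chains engage were read from lists of genes. Counts in KO against WT at D2 here and in the lists that follow stand beside 16.1% of all genes called, 14.5% lower, and counts at D2 against D0 beside 61.4% called in KO and 53.5% in WT. Of 4 Janus kinases, 2 were called in KO against WT at D2, both lower: Jak1, which serves the IL-2, IL-15 and interferon receptors, and Jak3, which binds the common gamma chain. Jak1 had 433, 454 and 495 CPM in KO D2, 712, 1056 and 1021 CPM in WT D2, 2072, 2547 and 2262 CPM in KO D0, and 2314 and 2565 CPM in WT D0. KO D2 was below WT D2 with no overlap (log2 -1.01 ± 0.15, edgeR adjusted p = 0.00054), and with the GC offset the value was -0.37 (edgeR adjusted p = 0.03). Jak3 had 131, 128 and 137 CPM in KO D2 and 269, 316 and 311 CPM in WT D2, a log2 value of -1.18 ± 0.18 (edgeR adjusted p = 0.00074) and -1.0 with the GC offset (edgeR adjusted p = 0.0017). Tyk2, which serves the IL-12 and interferon receptors, fell between D0 and D2 by 0.59 on the log2 scale in KO and by 0.91 in WT (edgeR adjusted p = 0.0065 and 0.00083). Of 8 STAT genes, 1 was called in KO against WT at D2, Stat5b, which acts below IL-2 and IL-15, at -0.69 ± 0.19 (edgeR adjusted p = 0.023). Between D0 and D2, 5 of 8 STAT genes rose in KO, and 6 rose and 2 fell in WT.

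Genes that answer these receptors changed with day. All 20 type I interferon response genes on the list rose at D2 in KO and in WT, with a median log2 change of 4.21 in KO and 3.75 in WT, against -0.20 and -0.07 over all genes. Usp18, which binds the Ifnar2 chain and damps its signal, averaged 1932 ± 197 CPM in KO D2, 1622 ± 124 CPM in WT D2, 38.2 ± 3.97 CPM in KO D0 and 34.2 ± 1.29 CPM in WT D0. At D2, 4 of the 20 were called in KO against WT, all higher, with a median log2 value of 0.40, against 0.01 over all genes. Oasl2, an antiviral gene of the 2'-5'-oligoadenylate synthetase family, had the smallest p, at 172 ± 4.76 CPM in KO and 115 ± 4.16 CPM in WT (log2 0.58 ± 0.11, edgeR adjusted p = 0.003).

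Of 10 IL-2 and IL-15 response genes, 6 rose and 3 fell at D2 in KO, and 7 rose and 1 fell in WT. Gzmb, the cytotoxic protease granzyme B, averaged 32004 ± 3642 CPM in KO D2, 31248 ± 3137 CPM in WT D2, 910.3 ± 76.4 CPM in KO D0 and 1147 ± 103 CPM in WT D0. In KO against WT at D2, 3 of the 10 were called, all lower, among them the survival kinase Pim2 (log2 -0.75, edgeR adjusted p = 0.00078) and the cell cycle kinase Cdk6 (log2 -0.63, edgeR adjusted p = 0.0063). With the GC offset neither was called: Pim2 was at -0.25 (edgeR adjusted p = 0.22) and Cdk6 at -0.03 (edgeR adjusted p = 0.92). With the replicate block as well, the edgeR adjusted p of Pim2 was 0.036 within day and 0.18 across days. Of 14 IL-12 and IL-18 response genes, 11 rose and 2 fell in KO and 10 rose in WT. In KO against WT at D2, 3 of 14 were called, all lower, near the share over all genes. Irf8, a factor that adaptive NK responses need, was one of these (log2 -0.77, edgeR adjusted p = 0.00091). Under the GC offset it was at -0.27 (edgeR adjusted p = 0.15), and with the replicate block as well the edgeR adjusted p was 0.0093 within day and 0.07 across days.

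Of 16 genes of IL-18 and IL-1 receptor signalling, 3 were called in KO against WT at D2, all lower: Chuk (log2 -1.57), Traf6 (log2 -0.78) and Irak1 (log2 -1.21), with adjusted p of 0.00081, 0.0012 and 0.0039 by edgeR. This count is near the share over all genes, and with the GC offset Traf6 was at -0.27 and no longer called (edgeR adjusted p = 0.16; with the block as well, 0.038 within day and 0.079 across days). Of 10 feedback inhibitors of cytokine receptors, 3 were called in KO against WT at D2, all lower. Socs1, which blocks Janus kinases, had 4.86, 5.92 and 9.63 CPM in KO D2 and 14.6, 59.5 and 48.8 CPM in WT D2 (log2 -2.59 ± 0.47, edgeR adjusted p = 0.002), and Ptpn1, a phosphatase of Jak2 and Tyk2, was at -1.02 ± 0.17 (edgeR adjusted p = 0.0013). With the GC offset Socs1 was at -1.87 and Ptpn1 at -0.41 (edgeR adjusted p = 0.0056 and 0.048). Cish, an inhibitor that IL-2 and IL-15 induce, rose by 3.55 on the log2 scale in KO and by 3.35 in WT, and its KO against WT value at D2 was 0.17 (edgeR adjusted p = 0.83).

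Other receptors gave a mixed picture. Of 4 tested common gamma chain and IL-2 family receptors besides the 10, Il21r and Il4ra rose and Il7r fell in both genotypes, and Crlf2, the TSLP receptor chain, was lower in KO at D2 (log2 -1.75, edgeR adjusted p = 0.0016). Of 7 TGF-beta family receptors, 4 fell in each genotype, and Tgfbr1 and Tgfbr2 were lower in KO at D2 (log2 -0.63 and -0.96, edgeR adjusted p = 0.021 and 0.00087). Both calls were lost with the GC offset (log2 -0.13 and -0.31, edgeR adjusted p = 0.75 and 0.08), and with the block as well the edgeR adjusted p of Tgfbr2 was 0.015 within day and 0.056 across days. Of 5 tested IL-1 family receptors, 2 rose and 2 fell in KO, and 2 rose and 1 fell in WT. Of 4 tested class II cytokine receptors, 1 rose and 2 fell in each genotype, and the IL-6 family chain Il6st rose by 2.30 on the log2 scale in KO and by 2.70 in WT.

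Genes with the most similar pattern over the 11 libraries were found by Pearson's correlation of log2 CPM over 9104 genes. For Il2ra these were Usp2 (r = 0.998) and Bcl2a1d (0.998), and for Ifnar2 Maf1 (0.996) and Lfng (0.995). Ifnar1 had the weakest best match, Herc3 at 0.950. These are descriptions over 11 libraries that share the split by day, and they carry no test.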

How the data were processed

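The authors deposited a table of raw counts, with Entrez IDs for genes and only whole numbers. The submitters' processing notes list build mm10 and the tools DESeq2 1.22.2, Salmon 0.13.1 (also entered as 13.1), Trimmomatic 0.36 and bcl2fastq 2.20.0.422. Their roles are not given, so the counts may be rounded estimates and cannot separate isoforms or near-identical genes. Per the labels, libraries were made by SMART-seq amplification of low-input RNA. RefSeq GRCm38.p6 matched 24387 of 24421 IDs.

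The test was edgeR's robust quasi-likelihood F test (edgeR 4.0.16, R 4.3.3) with TMM scaling and filterByExpr, for 13711 genes, over all 11 libraries with 4 group means, 7 residual degrees of freedom and no covariate. A call needed an adjusted p (Benjamini-Hochberg, all genes tested) under 0.05. SE came from the F statistic, and intervals are at 95%. The fit was tested on simulated counts. DESeq2 1.42.0, other scalings and filters, a replicate block, a GC offset (local trend, span 0.3, on the richest 100-base transcript window) and leaving out each library were alternatives. Deviations from the group means correlated at 0.217, 0.198 and 0.114 between KO and WT of the same number at D2, all over 0.1, so the number was used as a block. Same numbers could also correlate across days, at 0.218 between KO D0 and WT D2 replicate 1. Between KO D0 and WT D0 the value was 0.0275 for replicate 2 and 0.41 for replicate 3. Because WT D0 holds 2 libraries, their deviations mirror each other. A pair of unlike number, KO D0 replicate 1 and WT D0 replicate 2, gave 0.376. What makes same-numbered libraries deviate together was not tested.

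Named genes are the 10 chains, up to 2 called genes per direction with the smallest p from each of 13 pathway lists, the 2 genes most correlated with each chain (mean at least 5 CPM), the most abundant gene of each of 9 marker lists, and Ldha. Members and lists were chosen with earlier results of these data known. Rbm17, Ncr1, Klrb1c, Klra8 and the counted ligands were named for their place in a list or locus after their values were seen. The p-values of the main fit measure the spread between libraries within the groups, with the 11 libraries taken as independent. For KO against WT at D2 they leave out the shared replicate number, which only the fits with the block take into account.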

Additional observations from a re-analysis of the deposited data

Results flagged for a closer look

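For 12 genes among the receptor chains and the pathway lists the change between D0 and D2 differed between KO and WT by the test of that difference (edgeR adjusted p under 0.05), and each value here is the KO change minus the WT change on the log2 scale. Among the receptor chains it was Ifnar2, at -1.29, with changes of -2.29 in KO and -1.01 in WT. Among the list genes, the difference was -2.89 for Socs1, -1.78 for Crlf2, -1.35 for Runx1, -1.11 for Ptpn1, -1.0 for Jak3, -0.92 for Jak1, -0.90 for both Cdk6 and Tgfbr2, -0.84 for Irf8, -0.83 for Pim2 and -0.77 for Traf6. All 12 were negative, as were most calls over all genes, of which 5.84% were called, 0.124% higher and 5.72% lower. The 13 lists hold 122 entries, beside the 10 chains. These calls depend on single libraries. Over all genes, 0 were called higher and 4 lower without WT D0 replicate 2, and 4 and 113 without WT D2 replicate 3. The count was 32 higher and 1404 lower without WT D2 replicate 1, against 17 and 784 with all 11 libraries. Whether each list gene kept its call without 1 library is not given here. With the GC offset all 12 kept a negative sign, and none of the 12 was called by edgeR: adjusted p was 0.093 for Ifnar2 and ran from 0.08 for Socs1 to 0.55 for Traf6 in the others. Outside these lists, the difference was -2.11 for the deleted gene Ldha (edgeR adjusted p = 0.00022), and Rbm17 is given under the other observations. With the GC offset and the replicate block within day together, Ifnar2, Socs1, Crlf2, Runx1, Ptpn1 and Jak3 were called (edgeR adjusted p = 0.002, 0.0012, 0.0012, 0.0079, 0.01 and 0.0026) and the other 6 were not, and the same 6 were called with the block across days (edgeR adjusted p from 0.0012 for Socs1 to 0.036 for Ptpn1). These fits called more of all 13711 genes than the main fit: 945 higher and 1262 lower within day, and 378 higher and 877 lower across days.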

How the results depend on the processing

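The number of chains called in D2 against D0 stayed between 9 and 10 in KO and between 8 and 10 in WT over all alternatives, and at 0 in KO against WT at D0. In KO against WT at D2 (3 called) it was 5 with the replicate block within day, 5 with the GC offset and that block, and 5 with DESeq2, and from 1 to 4 when 1 library was left out. Over all genes the block within day called 900 higher and 2544 lower, and with the GC offset as well 1578 and 1711. DESeq2 called 667 higher and 1958 lower of 18860. In the difference of changes (1 called) it was 2 with RLE scaling, 2 with a filter of at least 5 mean CPM, 3 with the replicate block within day, 2 when that block ran across days, 2 for the GC offset joined to the block within day, 2 with DESeq2, 0 with the GC offset, and from 0 to 2 when 1 library was left out. Over all genes the block within day called 619 higher and 1997 lower in this comparison, and the block across days 139 and 1719. Of the other genes named, 1 reversed (Ptpn1, D2 against D0 in KO): it was 0.0543 with the GC offset (edgeR adjusted p = 0.73) and 0.0509 when a block across days was added to it (0.69), against -0.59. Library-total scaling was added after the data were seen. The cause of these shifts was not tested. A number of 3 libraries a group, and 2 in WT D0, limit the precision of every value, and 93.5% of tested genes had a GC value.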

Other observations

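The genes within 100 kb of the 3 receptor pairs did not move as blocks. Rbm17, a splicing factor gene before Il2ra (chr2:11585439-11603199), had 24.3, 30.3 and 30.7 CPM in KO D2, 57.4, 174 and 129 CPM in WT D2, 25.1, 54.2 and 48.6 CPM in KO D0, and 40 and 51.1 CPM in WT D0. It was lower in KO at D2 (log2 -2.08 ± 0.36, edgeR adjusted p = 0.0014; -1.44 and 0.0035 with the GC offset), while Il2ra and Il15ra were not called there. The difference of its changes was -1.98 (edgeR adjusted p = 0.046; 0.12 with the GC offset).

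Ncr1, which encodes the NK receptor NKp46, lay between 823 and 914 CPM in KO D2 and between 1471 and 1595 CPM in WT D2, and between 639.7 and 741 CPM in KO D0 and between 1207 and 1407 CPM in WT D0, with no overlap between the genotypes on either day. Klra8, which encodes Ly49H, lay between 475 and 493 CPM in KO D2, 419 and 449 CPM in WT D2, 399 and 1253 CPM in KO D0, and 1064 and 1286 CPM in WT D0.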
